A study of Mus musculus with 12 samples.

Results

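NKG2D, encoded by Klrk1, is an activating receptor of natural killer (NK) cells and of some T cells, and H60a, H60b, H60c, Raet1d, Raet1e and Ulbp1 encode cell surface proteins related to MHC class I that bind it. These 6 ligand genes, the receptor gene and Hcst, which encodes the signalling adaptor DAP10, form a set of 8 genes. The set was listed by name and was in effect chosen by the in vivo FPKM of cKO against WT Treg, where H60a stood out in earlier results of these data. All 8 were found among the 16232 gene rows measured in vivo, and 7 among the 24421 gene rows measured in vitro. H60a was found by its Entrez number in the in vivo table and had no row of its name in vitro.

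Polyadenylated RNA was sequenced from mouse regulatory T cells (Treg), the Foxp3-expressing CD4 T cells that restrain immune responses. The 6 groups of 2 libraries each were cKO and WT Treg taken as they were in vivo, cKO and WT Treg stimulated in vitro, and cKO and WT Treg left unstimulated in vitro. The cKO cells carried a conditional knockout of Kdm2b, which encodes a subunit of the Polycomb complex PRC1.1, and the WT cells were wild type. Cells came from spleen and lymph nodes. The Cre driver, the strain, the age and sex of the mice, the stimulus and its duration are not given in the sources used here, and neither is whether the 2 libraries of a group came from separate animals, so p-values measure only the spread between these libraries. The series compared the genotypes in vivo and after activation in culture.

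Binding of a ligand makes NKG2D signal through DAP10, which recruits PI3-kinase and GRB2, and in mice a short NKG2D form can also pair with DAP12, the product of Tyrobp. Healthy cells usually show little ligand on their surface, and DNA damage, proliferation, infection and transformation are known to raise it. The ligand genes differ between inbred mouse strains: H60a is known as a minor histocompatibility antigen that C57BL/6 mice do not express, and strains carry different members of the Raet1 family.

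The genes stand at 5 places in RefSeq GRCm38.p6. Raet1e (chr10:22158542-22189697), H60b (chr10:22273474-22288849) and Raet1d (chr10:22361861-22374143) lie side by side on chromosome 10, with 83776 bases between Raet1e and H60b and 73011 between H60b and Raet1d. H60c (chr10:3256202-3268091) and Ulbp1 (chr10:7444873-7473641) lie apart on the same chromosome. Klrk1 (chr6:129610323-129623903) is in the cluster of NK cell receptor genes on chromosome 6. Hcst (chr7:30417712-30419854) is on the - strand of chromosome 7, and 129 bases lie between its far end, not its start, and Tyrobp. H60a had no entry in the RefSeq table used here and is given no position.

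Raet1d and Raet1e are near copies, which limits how reads can be assigned to either. Of the 50-base words in Raet1d transcripts of GENCODE M21, 55.8% also occur in transcripts of Raet1e, and 44.7% of the words of Raet1e occur in another gene. The shared part is 7.6% for H60b, 5.7% for H60c and 1.8% for Ulbp1, and no word of Klrk1 or Hcst is shared. H60a was not part of this comparison, so the sequence that H60a and H60b share was not measured. How reads were divided between H60a and H60b is therefore not known. The likeness extends to the promoters: the 250 bases before the transcript start of Raet1d and before the second transcript start of Raet1e, as the RefSeq promoter table gives them, are identical at 245 of 248 aligned positions (98.8%). The CXXC domain of KDM2B is known to bind CG dinucleotides that lack methylation, so CG is in capitals in these windows, with the window of Ulbp1 and that of Hcst beside them to show a ligand gene elsewhere and the adaptor gene. RefSeq (GRCm38.p6) gives Raet1d as chr10:22361644-22361893 (+ strand), Raet1e as chr10:22173247-22173496 (+), Ulbp1 as chr10:7473478-7473727 (- strand) and Hcst as chr7:30419855-30420104 (-), all printed 5′ to 3′ along the gene. These transcript starts are not always the outer ends of the genes given above, so the windows of Raet1d, Ulbp1 and Klrk1 and the first of Raet1e reach into those spans, and the second of Raet1e and that of H60c lie within them.
Raet1d: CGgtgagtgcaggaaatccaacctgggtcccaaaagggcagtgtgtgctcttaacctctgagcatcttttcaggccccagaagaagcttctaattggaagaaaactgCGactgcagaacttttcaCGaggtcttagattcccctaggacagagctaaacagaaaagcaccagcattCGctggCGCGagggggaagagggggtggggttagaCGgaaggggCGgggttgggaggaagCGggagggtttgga
Raet1e, second start: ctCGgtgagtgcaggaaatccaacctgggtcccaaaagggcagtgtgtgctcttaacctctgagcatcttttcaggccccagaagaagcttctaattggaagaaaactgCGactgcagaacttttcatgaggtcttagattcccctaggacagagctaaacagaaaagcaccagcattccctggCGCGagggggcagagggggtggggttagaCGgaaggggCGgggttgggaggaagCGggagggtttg
Ulbp1: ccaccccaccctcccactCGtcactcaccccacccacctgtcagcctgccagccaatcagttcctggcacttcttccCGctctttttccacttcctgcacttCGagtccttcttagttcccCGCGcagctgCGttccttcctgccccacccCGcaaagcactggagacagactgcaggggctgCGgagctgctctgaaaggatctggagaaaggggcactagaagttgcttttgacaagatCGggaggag
Hcst: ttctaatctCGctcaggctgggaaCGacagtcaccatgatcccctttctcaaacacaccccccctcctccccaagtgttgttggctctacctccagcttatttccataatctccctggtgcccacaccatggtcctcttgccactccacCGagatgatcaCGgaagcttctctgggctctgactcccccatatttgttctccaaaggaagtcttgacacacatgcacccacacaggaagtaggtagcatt

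CG reads the same on both strands. The Raet1d and Ulbp1 windows hold 9 CG each, and 40.3% of 32851 windows of that length before mouse transcript starts hold at least as many. The second Raet1e window holds 7 (46.3% of windows), and the window before its first start, not a copy of the Raet1d window (29.3% identity), holds 16 (25.4% of windows). The windows of Hcst, Klrk1 and H60c hold 4 each (62.2% of windows), against a median of 6 over all windows. No window was available for H60a or H60b, so their CG content is not given.

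Of the Treg and T cell markers, Foxp3, Il2ra, Ikzf2, Ctla4, Cd4 and Cd3e were above 0 in each of the 12 libraries. That does not show purity, since all 6 B cell genes listed were also above 0 in every in vivo library. All values are FPKM (fragment numbers corrected for the length of the gene and the size of the library), the in vivo and in vitro tables were normalised separately, and levels are not compared between the tables by a test. FPKM summed to 461753 to 475374 in vivo and to 369720 to 438763 in vitro, read depth is unknown, and 9102 to 13273 gene rows were listed at 0 in an in vitro library, the most in the replicate 2 libraries of WT. Kdm2b, counted over the whole gene, averaged 136 and 112 FPKM in cKO and WT Treg in vivo, 93.6 and 89.9 unstimulated and 68.4 and 73.1 stimulated, so its level does not check the genotype labels. Foxp3 was below WT in cultured cKO Treg (71.5 and 82.6 against 194 and 189 FPKM unstimulated, limma log2 fold change of the mean of both conditions -1.29, adjusted p = 0.00722). That test counts the 4 libraries of a genotype as independent. With the same-numbered libraries of a genotype averaged over both conditions, which leaves 2 values per genotype, the adjusted p was 0.119 and 0 of 10710 genes were called by limma (1196 at an unadjusted p under 0.05). Markers of other cells moved with genotype. Summed over 6 B cell genes they came to 15.9 to 22.9 FPKM in cKO and 49.4 to 64.7 in WT Treg in vivo, 160 to 185 against 28.2 to 29.2 unstimulated, and 138 to 144 against 28.6 to 45.0 stimulated. Summed over 6 erythroid genes they came to 5103 to 51165 FPKM in cKO and 11.2 to 644 in WT unstimulated Treg, and to 6923 to 41721 against 305 to 1689 stimulated. In bulk RNA, fewer cells of a type and less RNA per cell cannot be told apart.

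H60a was the ligand gene that stood furthest apart. In vivo it measured 47.7 and 41.7 FPKM in cKO Treg, against 1.59 and 1.96 FPKM in WT Treg. Both cKO libraries were far above both WT libraries, and the means of 44.7 and 1.78 FPKM differed 25.2-fold. On the log2(FPKM + 1) scale the difference was 4.04 (SE 0.14), the greatest increase among the 10415 genes that averaged 1 FPKM or more over the 4 libraries, and it was 3.95 to 4.14 with either library of either genotype left out. H60a drew attention to the gene set by this very difference, so the values are a description and carry no test.

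H60b, the next ligand gene, was also higher in cKO Treg in vivo. It measured 14.74 and 14.97 FPKM in cKO Treg, against 6.39 and 8.04 FPKM in WT Treg. The groups did not overlap, and the difference in log2(FPKM + 1) was 0.96 (SE 0.14), 70th of 10415 genes from the top. For background, 0.374% of all genes tested in vivo were called at a limma adjusted p under 0.05 (39 of 10415), and nothing is read from that share for the 5 members measured above the filter, since the set was chosen with this contrast in view.

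The rest of the set differed little in vivo. Ulbp1, which encodes the transmembrane ligand MULT1, measured 1.25 and 1.34 FPKM in cKO Treg and 1.53 and 1.30 FPKM in WT Treg. Klrk1 measured 3.04 and 2.93 FPKM in cKO Treg and 2.41 and 3.39 FPKM in WT Treg. Hcst measured 52.0 and 62.5 FPKM in cKO Treg and 62.2 and 66.7 FPKM in WT Treg. Each of these 3 genes overlapped between the genotypes, with log2 differences of -0.07 (SE 0.15), 0.04 (SE 0.17) and -0.17 (SE 0.12). Raet1d, Raet1e and H60c had means under 1 FPKM and were outside the fit: the highest values were 0.34 FPKM in cKO and 0.52 in WT for Raet1d, and 0.17 and 0.37 for H60c, while Raet1e measured 0.13 and 0.07 FPKM in cKO and was listed at 0 in both WT libraries. Thus 5 of 8 members passed the filter on low values in vivo.

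**Figure D1:**
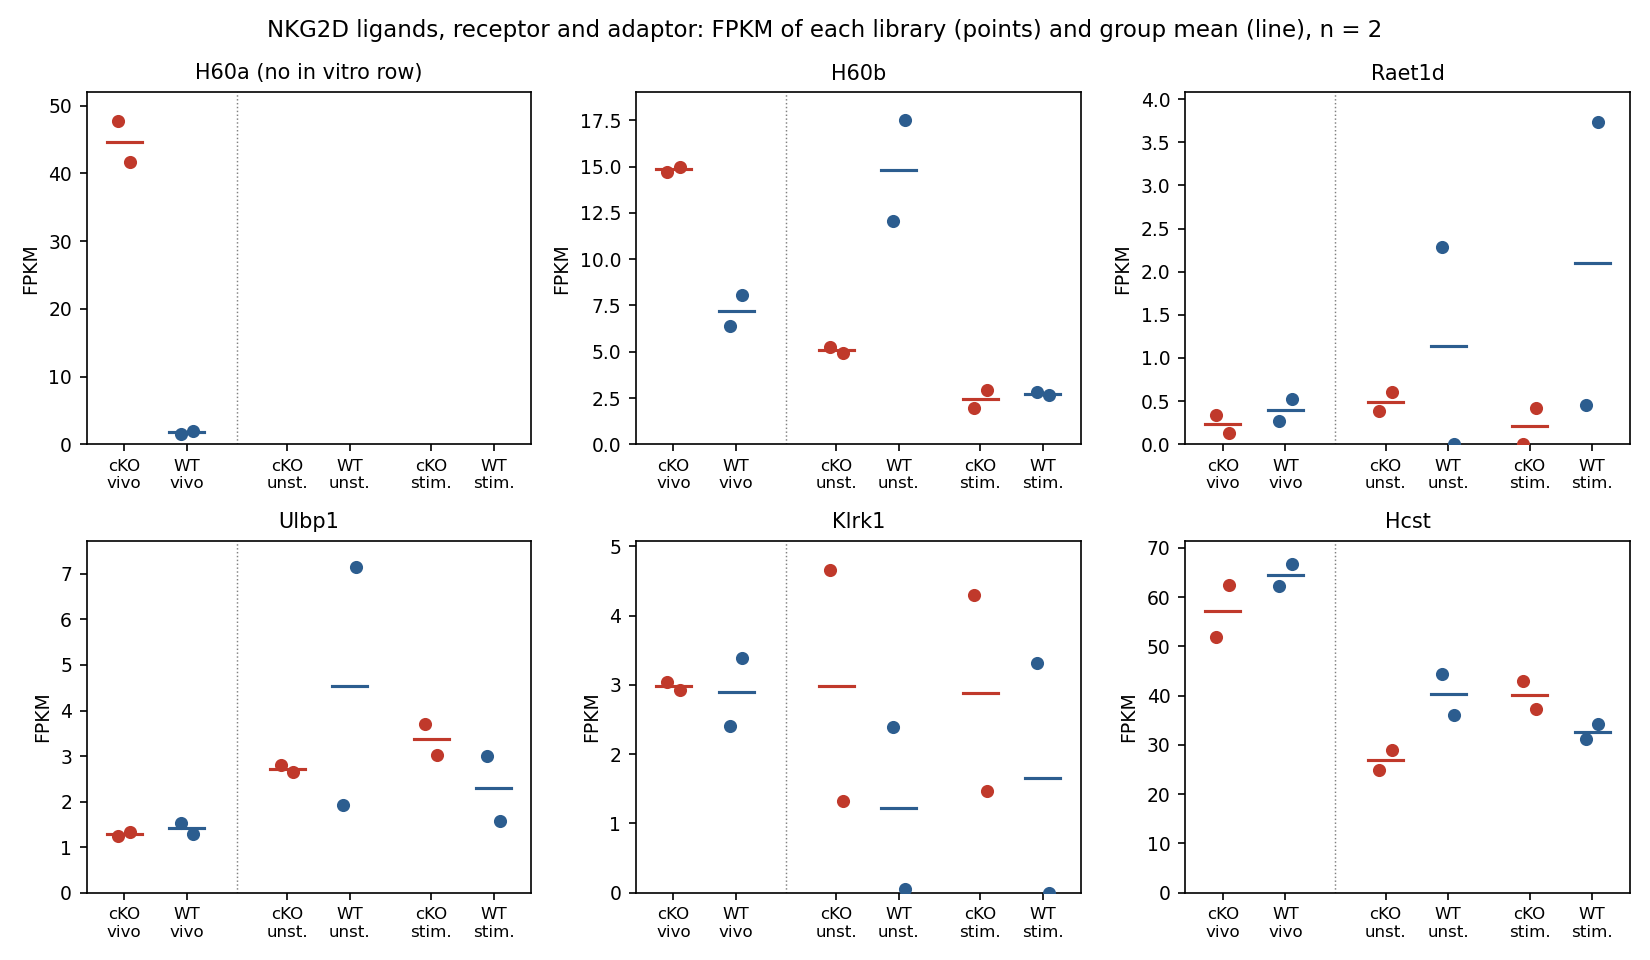
FPKM of 6 members (vertical axes, linear from 0) in every library (points) with the group mean (line), cKO in red and WT in blue, in vivo left of the dotted line and in vitro right of it. H60a lies above 40 FPKM in both cKO libraries in vivo and below 2 FPKM in both WT libraries, and H60b is above WT in vivo but below WT in unstimulated culture.

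Genes next to H60b did not differ in vivo in the same way. Of 8 rows whose start lies within 1 Mb of H60b, Raet1d or Raet1e, 4 passed the filter and none was called by limma (unadjusted p under 0.05 in 0). Their log2 differences, cKO over WT, were 0.16 for Sgk1, a kinase, 0.16 for E030030I06Rik, -0.10 for Hbs1l, which acts in ribosome rescue, and -0.11 for Tbpl1, a TBP-like factor, with adjusted p between 0.604 and 0.703. Across the surroundings of all members with a position, 77 of 130 rows were tested and none was called (12, or 15.6%, had an unadjusted p under 0.05, as had 13% of all genes). Their median difference was 0.005, against -0.016 for all genes. Within 5 Mb, 2 of 243 tested neighbours were called, both higher in cKO and both near Klrk1. Of all genes, 0.374% were called.

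In culture the order of the genotypes for H60b was the other way round. In unstimulated cells it measured 5.23 and 4.94 FPKM in cKO Treg, against 12.1 and 17.5 FPKM in WT Treg. Both cKO libraries were below both WT libraries, with means of 5.09 ± 0.204 and 14.8 ± 3.85 FPKM (SD, n = 2 each). The log2 difference of -1.36 (SE 0.26) had an unadjusted p of 0.000915 but an adjusted p of 0.175 in limma over 10710 genes, so it was not called, and it lay between -1.61 and -1.10 with any 1 library left out. Only 0.0747% of all genes were called in this contrast (8 of 10710), and 0 of the 4 members tested. In stimulated cells H60b measured 1.94 and 2.92 FPKM in cKO Treg and 2.80 and 2.67 FPKM in WT Treg, which overlapped (log2 difference -0.14, SE 0.26, adjusted p = 0.844). In stimulated cells 0.0187% of all genes (2 of 10710) and 0 of 4 members were called, and in the mean of both conditions 1.08% (116 of 10710) and 0 of 4, where H60b differed by -0.75 (SE 0.19, adjusted p = 0.117). The part of the B cell and erythroid sums, which also differed between cultured cKO and WT cells, was not tested.

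Stimulation lowered H60b in WT Treg. It measured 2.80 and 2.67 FPKM in stimulated WT Treg, against 12.1 and 17.5 FPKM in unstimulated WT Treg, a 5.42-fold difference of means. The log2 difference was -2.06 (SE 0.26, limma adjusted p = 0.00918), and both stimulated libraries were below both unstimulated ones. H60b was the 1 member called among the 4 tested, in a contrast where 2.43% of all genes were called (260 of 10710) and 0.822% were called lower. With each of the 8 libraries left out in turn it was called every time (-2.31 to -1.81, adjusted p 0.0159 to 0.047). It was not called when no filter on low values was set (adjusted p = 0.0554) or without both replicate 1 libraries of cKO (adjusted p = 0.0806), and in either case the difference itself was unmoved.

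In cKO Treg H60b measured 1.94 and 2.92 FPKM stimulated and 5.23 and 4.94 FPKM unstimulated. The stimulated libraries were again the lower ones, with a log2 difference of -0.84 (SE 0.26) that did not pass (adjusted p = 0.115). In this contrast 4.58% of all genes and 0 of 4 members were called. Without both replicate 2 libraries of WT, which leaves the cKO values as they are, it passed (adjusted p = 0.0412). The responses of the 2 genotypes differed by 1.22 (SE 0.37), with an unadjusted p of 0.0115 and an adjusted p of 0.999 in the limma interaction test, which called 0% of genes (0 of 10710, with 380 at an unadjusted p under 0.05). Over the 4 in vitro groups H60b therefore ran from unstimulated WT, through unstimulated cKO, to the stimulated groups, whose libraries overlapped.

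Among the neighbours in unstimulated culture, 5 were tested and none was called (1 had an unadjusted p under 0.05). C920009B18Rik, a long noncoding RNA gene whose annotated start is 33308 bases from that of H60b, measured 6.08 and 8.35 FPKM in cKO Treg and 13.0 and 20.5 FPKM in WT Treg. Its genotypes did not overlap, as those of H60b did not, and its difference of -1.09 (SE 0.40) had an adjusted p of 0.643. It has no row in vivo. The other 4 differed by -0.13 for Sgk1, -0.10 for Tbpl1, 0.01 for Hbs1l and 0.49 for Mir7663, a short feature whose FPKM is uncertain.

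**Figure D2:**
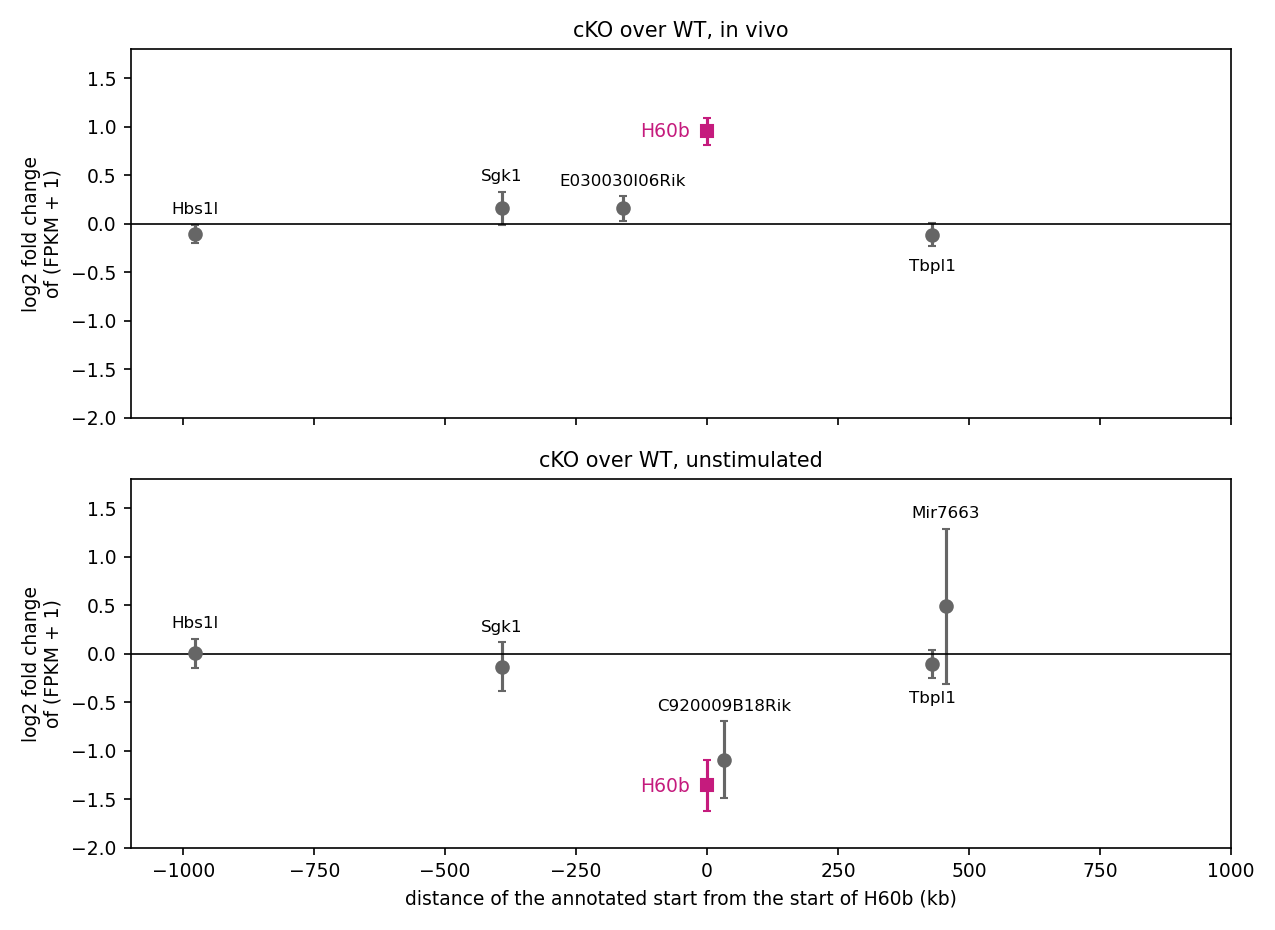
Log2 fold change of (FPKM + 1) with its SE, cKO over WT, for H60b (square) and the tested genes within 1 Mb (circles), placed by the distance of their annotated start from that of H60b in kb, in vivo above and in unstimulated culture below. H60b lies at 0.96 in vivo and -1.36 unstimulated, the in vivo neighbours lie between -0.11 and 0.16, and C920009B18Rik lies at -1.09 in culture.

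The other ligand genes were low or variable in culture. Ulbp1 measured 2.79 and 2.64 FPKM in unstimulated cKO Treg, against 1.93 and 7.14 FPKM in unstimulated WT Treg, and 3.70 and 3.03 FPKM in stimulated cKO Treg, against 3.004 and 1.578 FPKM in stimulated WT Treg. The unstimulated WT libraries lay on either side of the cKO ones, and in stimulated cells both cKO libraries were above both WT ones by a narrow margin. No Ulbp1 contrast passed, with log2 differences of -0.39 (SE 0.47, adjusted p = 0.960) unstimulated and 0.44 (SE 0.47, adjusted p = 0.712) stimulated. Without the replicate 2 libraries of WT the unstimulated difference was 0.34.

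Raet1d measured 0.389 and 0.601 FPKM in unstimulated cKO Treg, against 2.29 and 0 in WT, and 0 and 0.415 in stimulated cKO Treg, against 0.452 and 3.74 in WT. Its highest values were in single WT libraries, 1 library of each genotype was listed at 0, and its mean of 0.985 FPKM over the 8 libraries fell just under the filter, so it was not tested. Raet1e was listed at 0 in 7 of 8 libraries and at 0.132 FPKM in the first stimulated WT library. H60c, a ligand gene best known from skin, was listed at 0 in all 8. Of the family members Raet1a, Raet1b and Raet1c, which are not in the in vivo table, Raet1b and Raet1c were listed at 0 throughout. Raet1a measured 0.462 and 0.281 FPKM in unstimulated cKO Treg, against 0 and 3.63 in WT, and 0.340 and 0.0667 in stimulated cKO Treg, against 0 in both WT libraries. Given their shared sequence, how the reads of the Raet1 genes were divided among them is uncertain.

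**Figure D3:**
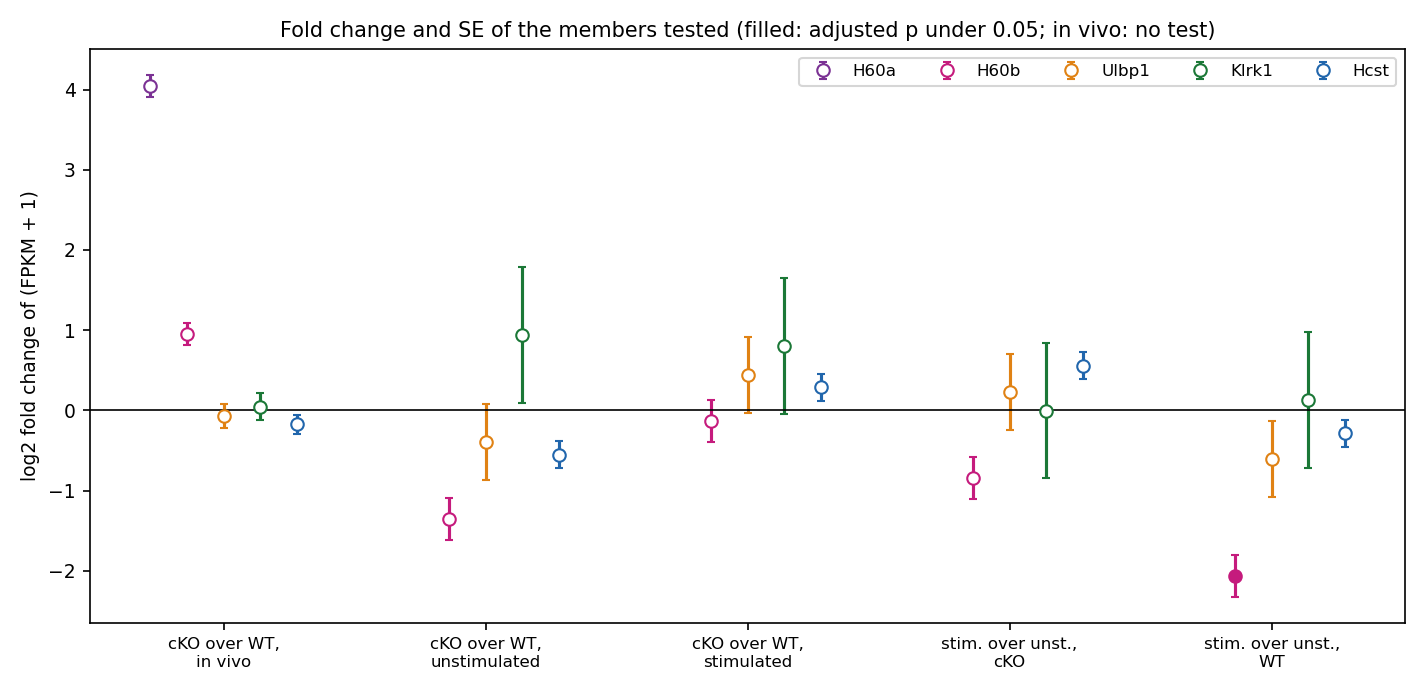
Log2 fold change of (FPKM + 1) with its SE (vertical axis) for the 5 members above the filter in each contrast (horizontal axis); filled points passed at an adjusted p under 0.05, and the in vivo contrast has no test. H60a at 4.04 in vivo is the farthest from 0, and H60b at -2.06 for stimulated over unstimulated WT is the only filled point.

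The receptor gene Klrk1 varied widely between libraries of 1 group in culture. It measured 4.66 and 1.32 FPKM in unstimulated cKO Treg, against 2.39 and 0.0567 in unstimulated WT Treg, and 4.30 and 1.47 in stimulated cKO Treg, against 3.31 and 0 in stimulated WT Treg. In each of the 4 groups the replicate 1 library was the higher, and the genotypes overlapped. The difference, cKO over WT, was 0.94 (SE 0.85, adjusted p = 0.932) unstimulated and 0.80 (SE 0.85, adjusted p = 0.709) stimulated, and stimulated over unstimulated it was -0.003 in cKO and 0.13 in WT (SE 0.85 each). None of these passed, and SEs of this size allow a wide range of differences.

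All 11 NK cell genes listed were above 0 in each in vivo library, and 2 to 10 of them were listed at 0 in a culture library. Their levels are not compared between the settings, which were normalised separately. The sum of 11 NK cell genes was 29.5 to 46.1 FPKM in cKO and 44.2 to 54.6 FPKM in WT Treg in vivo, 5.88 to 12.6 against 5.09 to 6.38 unstimulated, and 7.30 to 12.6 against 0.484 to 15.9 stimulated. Gzma, also a gene of cytotoxic T cells, made up much of the in vivo sum, with 21.99 and 11.98 FPKM in cKO and 21.34 and 26.95 in WT Treg. In the second stimulated WT library, where Klrk1 was listed at 0, 10 of the 11 NK cell genes were also listed at 0. That library had the most gene rows listed at 0 of any in culture (13273 of 24421). Of 8 myeloid genes, 4 were listed at 0 in it too. Ncr1, which encodes the NK receptor NKp46, measured 0.82 and 0.86 FPKM in cKO and 0.71 and 0.75 FPKM in WT Treg in vivo, and was listed at 0 in both replicate 2 libraries of WT in culture. The part of NK cells in the Klrk1 level was not tested. Of the other receptor genes of the NK gene complex on chromosome 6, 12 of 32 listed were tested in vivo and 7 in culture, and none was called in any of the 7 contrasts. Their median difference in vivo was -0.20, against -0.016 for all genes. In culture the median of the 7, cKO over WT, was 0.09 unstimulated, -0.46 stimulated and -0.151 in the mean of both conditions. The medians of all genes were 0.019, -0.045 and -0.011. For stimulated over unstimulated Treg it was -0.72 in cKO, against -0.14 for all genes, and -0.239 in WT, against -0.044. For the interaction it was -0.194, against -0.076.

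**Figure D4:**
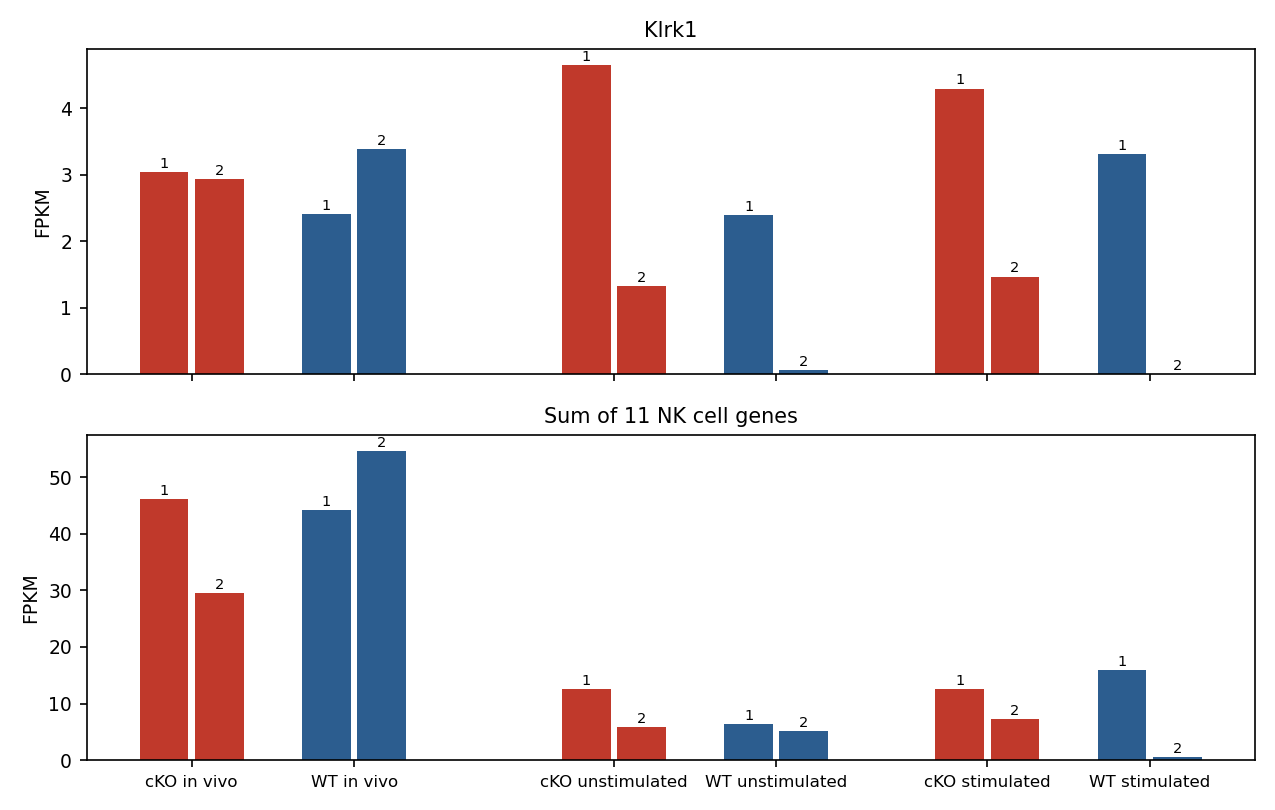
FPKM of Klrk1 (top) and summed FPKM of 11 NK cell genes (bottom) in each library, with bars from 0, cKO in red, WT in blue and the library number above each bar. Klrk1 is higher in library 1 of each in vitro group, and both panels are lowest in the second stimulated WT library. That library also had the most gene rows listed at 0.

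The adaptor gene Hcst was the most abundant member in every library. In unstimulated culture it measured 25.0 and 29.05 FPKM in cKO Treg, against 44.4 and 36.2 FPKM in WT Treg, and in stimulated culture 43.0 and 37.3 FPKM in cKO Treg, against 31.1 and 34.2 FPKM in WT Treg. Both cKO libraries were below WT before stimulation and above WT after it. Neither difference passed: it was -0.56 (SE 0.17, unadjusted p = 0.0110, adjusted p = 0.507) unstimulated and 0.29 (SE 0.17, adjusted p = 0.480) stimulated. Stimulated over unstimulated, Hcst differed by 0.56 (SE 0.17, adjusted p = 0.108) in cKO and by -0.29 (SE 0.17, adjusted p = 0.392) in WT. The genotypes' responses differed by 0.84 (SE 0.24), with an unadjusted p of 0.00775 and an adjusted p of 0.999. As for H60b, the cKO response passed without both replicate 2 libraries of WT (adjusted p = 0.0423).

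Tyrobp, the neighbour of Hcst that encodes the ITAM adaptor DAP12, was not called in any contrast. It measured 11.38 and 12.03 FPKM in cKO Treg and 14.3 and 16.9 FPKM in WT Treg in vivo (log2 difference -0.38, adjusted p = 0.297). In culture it measured 13.7 and 3.91 FPKM in unstimulated cKO Treg, against 1.10 and 6.24 in WT, and 6.23 and 2.83 in stimulated cKO Treg, against 2.52 and 3.39 in WT. Tyrobp is also expressed by myeloid cells, and the sum of 8 myeloid genes was 56.2 to 129 FPKM in cKO and 20.1 to 29.6 FPKM in WT Treg unstimulated. Of 45 tested genes within 1 Mb of Hcst, 4 were called in cKO Treg on stimulation, all lower: Gramd1a (-1.14), Igflr1 (-1.34), Sdhaf1 (-1.40) and Psenen (-1.08), with adjusted p of 0.0164 to 0.0475. In that contrast 4.58% of all genes were called and 2.49% were called lower. With median-of-ratios scaling Psenen did not pass (-0.95, adjusted p = 0.0647), and the other 3 did. Across genotypes the only neighbour called near any member was the B cell gene Cd22 (1.72 in the mean of both in vitro conditions, adjusted p = 0.0251, and 0.188 with same-numbered libraries averaged).

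Downstream of the receptor, 29 genes of NKG2D signalling and killing were listed, among them kinases, adaptors, granzymes and cytokines. In vivo all 29 were tested, 0 were called higher and 1 lower: Fasl, the death ligand, averaged 5.36 ± 0.679 FPKM in cKO and 12.2 ± 0.665 FPKM in WT Treg (SD, n = 2 each; log2 difference -1.05, limma adjusted p = 0.0425). Fasl is also an NK cell gene, and the part of the NK cell sum, which was 29.5 to 46.1 FPKM in cKO and 44.2 to 54.6 FPKM in WT Treg, was not tested. The list's median was -0.125, against -0.016 for all genes, of which 0.374% were called. In unstimulated culture 28 were tested and 1 was called: Syk, the kinase that DAP12 recruits, averaged 11.3 ± 0.621 FPKM in cKO and 1.71 ± 0.418 FPKM in WT Treg (2.19, adjusted p = 0.0189), and it was also called in the mean of both conditions (2.00, adjusted p = 0.0038, and 0.1001 with same-numbered libraries averaged). Syk is a B cell and myeloid gene too, and the part of the higher B cell and myeloid sums of cultured cKO cells in it was not tested. In vivo Syk ran the other way, at 2.84 and 4.44 FPKM in cKO and 6.98 and 7.50 FPKM in WT Treg, and was not called. In stimulated culture 0 of 28 listed genes were called between genotypes (6 at an unadjusted p under 0.05). Of all genes, 0.0747% were called unstimulated, 0.0187% stimulated and 1.08% in the mean of both conditions.

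Stimulation moved a few genes of the same list. Lcp2, which encodes the adaptor SLP-76, rose in both genotypes (0.98 in cKO, adjusted p = 0.0186, and 1.05 in WT, adjusted p = 0.0178). In cKO Treg the granzyme gene Gzmb rose as well, averaging 16.2 ± 5.08 FPKM stimulated and 4.07 ± 1.45 FPKM unstimulated (1.76, adjusted p = 0.0469), while Lat (-1.02), Mapk3 (-1.13) and Grb2 (-0.65) fell. Thus 2 of 28 were called higher and 3 lower in cKO, and 1 higher and 0 lower in WT, where 4.58% of all genes were called in cKO and 2.43% in WT. No gene of the list passed the interaction test. With median-of-ratios scaling Grb2 did not pass (-0.51, adjusted p = 0.0728). In cKO the median of all genes was -0.139 on stimulation, and -0.017 with median-of-ratios scaling, under which 68.1% of all calls were higher, against 45.5% without it.

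Genes known to regulate the ligands, such as the DNA damage kinases, E2F factors, p53 and Myc, made a list of 30. Of these, 26 were tested, and 0 were called between genotypes in vivo (5 at an unadjusted p under 0.05), unstimulated (2), stimulated (4) or in the mean of both conditions (6). Values that did not pass include Marchf9 in vivo (0.93, adjusted p = 0.116), Hsf1 stimulated (-0.83, adjusted p = 0.115) and E2f2 stimulated (1.78, adjusted p = 0.231). Myc rose with stimulation, averaging 100 ± 11.1 FPKM in stimulated cKO Treg and 34.1 ± 12.3 FPKM in unstimulated cKO Treg (1.57, adjusted p = 0.0340), and 116 ± 11.9 against 28.5 ± 10.9 FPKM in WT Treg (2.03, adjusted p = 0.0167). Of the proteases that can shed NKG2D ligands, 4 were tested and Mmp14 was higher in cultured cKO Treg (2.05 in the mean of both conditions, adjusted p = 0.0227, and 0.169 with same-numbered libraries averaged). In that mean 1.08% of all genes were called. Mmp14 was not called in either condition alone (adjusted p = 0.170 unstimulated and 0.130 stimulated). In vivo it measured 4.16 and 9.11 FPKM in cKO and 1.45 and 1.32 FPKM in WT Treg (1.60, adjusted p = 0.0948). In culture it averaged 6.41 ± 1.06 FPKM in cKO and 0.681 ± 0.0755 FPKM in WT unstimulated Treg. Of 18 tested MHC-like genes and ligands of other NK receptors in culture, 1 was called: H2-T10, a nonclassical class I gene, was lower in stimulated WT Treg (28.88 ± 10.99 against 84.5 ± 18.2 FPKM unstimulated, -1.55, adjusted p = 0.0317). None of 19 was called in vivo. Of all genes, 2.43% were called on stimulation of WT and 0.374% in vivo.

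Because the ligand genes vary between strains and the strain is not given, 13 genes known to vary between inbred strains were set beside them. In vivo 8 were tested and none was called by limma (2 at an unadjusted p under 0.05), with a median difference of -0.19, against -0.016 for all genes, and 7 of the 8 were lower in cKO without passing. Ly6c1, a surface antigen gene with the smallest p of the list, measured 21.9 and 19.3 FPKM in cKO and 32.5 and 28.6 FPKM in WT Treg (-0.55, adjusted p = 0.148), and its cKO libraries were also the lower ones in culture (-1.04 unstimulated, adjusted p = 0.468, and -0.96 stimulated, adjusted p = 0.235). Klra8, which encodes the NK receptor Ly49H of C57BL/6 mice, measured 1.02 and 0.77 FPKM in cKO and 1.94 and 1.66 FPKM in WT Treg, the cKO libraries being the lower. Nnt, in which C57BL/6J mice carry a deletion of some exons, measured 3.68 and 4.11 FPKM in cKO and 4.41 and 8.17 FPKM in WT Treg. Both genes were detected in all 4 in vivo libraries. In culture Klra8 averaged 0.0219 FPKM in unstimulated cKO Treg and 0 in each other group. Nnt overlapped between the genotypes in unstimulated culture. Stimulated, it was higher in cKO, at 6.29 and 6.08 FPKM against 5.51 and 5.23 FPKM in WT Treg. Of the list, 7 were tested in culture and none was called in any contrast. Unlike in vivo, most were higher in cKO there. Of the 7, 5 were higher unstimulated (median 0.183, against 0.019 for all genes). In stimulated cells 6 of the 7 were higher (median 0.306, against -0.045 for all genes). The part of strain background in the H60a and H60b levels was not tested.

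The genes whose pattern was most like that of a member were found by Pearson correlation of log2(FPKM + 1), as a description over libraries that share their groups and normalisation. For H60a over the 4 in vivo libraries, these were Camk2n1 (r = 0.9991), Pde4a (0.9986) and Rnf157 (0.9982), among the 97 other genes that were called or differed by at least 1 in log2 between the genotypes in vivo. Values of r near 1 follow from that selection, since both H60a and these genes separate the same 2 pairs of libraries. Camk2n1, which encodes an inhibitor of CaM kinase II, measured 21.8 and 22.4 FPKM in cKO Treg and 2.02 and 2.29 FPKM in WT Treg. Over the 8 in vitro libraries H60b was most like Endod1 (0.968), Tmem60 (0.964) and Cfdp1 (0.958), which were likewise highest in both unstimulated WT libraries. Ulbp1 was most like 6030458C11Rik (0.977), Alg13 (0.955) and Gfod1 (0.945), each peaking in the second unstimulated WT library. Klrk1 was most like Ctso (0.977), Dntt (0.976) and Gzma (0.976), the granzyme A gene of NK and cytotoxic cells, and Hcst was most like Gpkow (0.889), Cct4 (0.880) and Dcaf13 (0.863).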

How the data were processed

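Mouse Treg RNA was measured in 12 libraries, 6 groups of 2, grouped by the sample titles. The values are FPKM as the authors deposited them, 1 table for the 4 in vivo libraries and 1 for the 8 in vitro libraries. HISAT2 2.2.1 and StringTie 2.1.1, and the builds mm10 and hg19, appear without roles, per the submitters' processing notes. No source used here gives the other steps. The in vivo columns carry no replicate number, so their first and second library follow the table's order. A further 4 columns of no sample were not used. FPKM are not counts and the depth is unknown, so no count model and no counting interval was used, and a gene at 0 is said to be listed at 0.

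Each table was fitted separately with limma 3.58.1 in R 4.3.3 on log2(FPKM + 1), eBayes with a trend, with two-sided tests. Genes averaging 1 FPKM or more in a table were kept (10415 in vivo, 10710 in vitro). P-values were Benjamini-Hochberg adjusted over all genes tested, with a threshold of 0.05. Fold changes on this scale understate the change of low genes. The fit was tested on simulated data. Numbers of replicates in culture were not used to pair libraries. Alternatives were a pseudocount of 0.1, no filter, 2 other normalisations, the replicate block, a 5 Mb window, each library left out and, added after seeing the data, 3 sets of libraries or genes left out, and same-numbered libraries of a genotype averaged. The members and gene lists were chosen with earlier results of these data known. The text names all members, Tyrobp, and the 3 genes most like each member. It names the called genes of the lists other than the cell type markers, whose called genes are mostly left unnamed. Of the neighbours within 1 Mb it names those called, and those tested near H60b in vivo and in unstimulated culture. Klra8, Nnt, Ly6c1, Marchf9, Hsf1, E2f2, Ncr1, Foxp3 and the Treg markers were named beside them after their values were seen. Python 3.11.15 was used for tables and windows. Positions and windows are from RefSeq GRCm38.p6. A gene of the signalling list is not reported here and was left out of the counts.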

Additional observations from a re-analysis of the deposited data

Results flagged for a closer look

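H60b differed between the genotypes in opposite directions in 2 settings: cKO over WT, the log2 difference was 0.96 in vivo, with both cKO libraries above both WT libraries, and -1.36 in unstimulated culture, with both cKO libraries below both WT libraries. The difference between these differences was not tested, because the tables were normalised separately.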

How the results depend on the processing

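The in vivo difference kept its direction in each alternative for H60a (3.95 to 4.58, highest at a pseudocount of 0.1), H60b, Ulbp1 and Hcst, but not for Klrk1 (-0.14 to 0.22 with 1 library left out). In culture H60b unstimulated and on stimulation, and each Hcst contrast, kept theirs. Signs changed for H60b stimulated, 0.071 without both replicate 1 libraries of cKO; Ulbp1, 0.34 unstimulated, 0.45 for stimulated over unstimulated WT and -0.22 for the interaction, all without both replicate 2 libraries of WT, and, for the mean of both conditions, -0.093 with quantile normalisation and -0.048 without both replicate 1 libraries of cKO; and Klrk1. Klrk1 turned to -0.25 stimulated and -0.08 in the mean of both conditions without both replicate 2 libraries of WT, to -0.10 (pseudocount of 0.1) and -0.0145 (quantile) in stimulated WT, to 0.0151 (pseudocount), 0.10 (median of ratios), 0.13 (quantile), 0.0895 (without both replicate 1 libraries of cKO) and 0.0799 (without haemoglobin genes) in stimulated cKO, and to 0.11 (pseudocount) and 0.15 (quantile) in the interaction. The cause was not tested. With 1 library left out, the values that changed sign ranged over -1.13 to 0.34 (Ulbp1 unstimulated), -0.34 to 0.071 (H60b stimulated), -0.25 to 1.85 (Klrk1 stimulated), -0.35 to 0.39 (Ulbp1, mean of both conditions), -1.34 to 0.13 (Ulbp1) and -0.92 to 1.19 (Klrk1) on stimulation of WT, and -0.65 to 0.64 on stimulation of cKO and -1.19 to 0.92 in the interaction for Klrk1; none of these was called.
Genes called depended on settings. With no filter 0 were called in vivo, 1 unstimulated, 0 stimulated, 35 in the mean of both conditions, 92 in WT and 185 in cKO on stimulation, where more genes share the adjustment; members called on stimulation of WT were then 0. Median of ratios gave 74 in vivo and a pseudocount of 0.1 gave 0 stimulated. Without both replicate 2 libraries of WT, 52 were called unstimulated, 7 stimulated, 185 in the mean, 1932 in cKO on stimulation (2 members) and 5 for the interaction. Without both replicate 1 libraries of cKO the counts were 0, 0, 0 and 1 for the first 4 of these, and 32 for stimulated WT (0 members). In cKO on stimulation 45.5% of calls were higher, 68.1% with median of ratios and 62.5% with quantile normalisation. Neighbours called within 5 Mb were 2 in vivo, 3 in the mean, 4 in WT and 19 in cKO on stimulation. With the main settings, neighbours called within 1 Mb were 1 in the mean and 4 in cKO on stimulation. The neighbour counts that follow are also within 1 Mb. In the mean they were 0 at a pseudocount of 0.1, with no filter and without both replicate 1 libraries of cKO. In cKO on stimulation they were 1 with no filter, 20 without both replicate 2 libraries of WT and 0 without both replicate 1 libraries of cKO.
Deviations of same-numbered libraries correlated at 0.42 between the cKO groups and at 0.239 between the WT groups, and at -0.138 to 0.058 across genotypes, so the numbers did not pair genotypes. Whether they mark a shared source within a genotype is not given in the labels. With same-numbered libraries of a genotype averaged, 0 genes and 0 neighbours were called in the mean of both conditions. With the replicate block the fit called 0 genes stimulated, and 1 neighbour in WT on stimulation; no member's call changed under it. Leaving out 1 library moved the genes called to 17 to 1994 in vivo, 0 to 28 unstimulated, 0 to 197 stimulated, 7 to 329 in the mean, 95 to 966 in WT and 12 to 660 in cKO on stimulation, and 0 to 3 for the interaction. Neighbours called ran over 0 to 14, 0 to 0, 0 to 1, 0 to 2, 0 to 10, 0 to 7 and 0 to 0 in the same order. With 2 libraries a group and unknown depth, a difference that missed the threshold is not shown to be absent.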
